A study of Sus scrofa with 10 samples.

Results

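A set of 10 genes of hepatic stellate cells and of the extracellular matrix, *COL1A1*, *COL1A2*, *COL3A1*, *DCN*, *LUM*, *SPARC*, *THBS1*, *TIMP1*, *FN1* and *VIM*, was followed in pig liver on microarrays. A probe set was assigned to a gene when the platform annotation gave that symbol and no other, and the value of a gene was the mean of its probe sets with a mean log2 intensity of at least 4 over the 10 arrays. This left 7 of the 10 genes measured, by 10 of 19 probe sets, among 4730 genes measured in all. The liver RNA came from 10 females of a backcross of Iberian x Landrace boars to Landrace sows, with 1 GeneChip Porcine array for each animal, from 5 H and 5 L animals. The labels give H a high and L a low intramuscular fatty acid composition. In the study, the animals were picked from the extremes of a principal component of fat traits, with more polyunsaturated fatty acids in the H muscle and more saturated and monounsaturated ones in the L muscle. No animal was treated, and all were fed and slaughtered alike. Full sibs and other maternal sibs were placed in opposite groups. Their identity was not part of the labels, and kinship was not modelled.

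Hepatic stellate cells lie between the hepatocytes and the sinusoidal endothelium, store vitamin A, and turn into matrix-producing myofibroblasts in the injured liver. Their collagens I and III form the fibrils of scar tissue, small proteoglycans such as decorin and lumican space these fibrils, and TIMP-1 slows their breakdown. Fibronectin is different in source, since hepatocytes secrete most of the plasma form.

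The expression of these genes on the arrays separated single animals but not the groups. *DCN*, *SPARC*, *THBS1*, *TIMP1* and *VIM* were all above their means in H4, L4 and L5 and all below them in H2, H5, L1 and L2. *FN1* ran the other way, mainly through 1 of its 2 measured probe sets, and the measured *COL1A2* probe set hardly varied. Neither the differences between H and L nor the correlations between genes passed adjustment over the array. The deposited arrays had medians between 3.78 and 3.85 and correlations between pairs of arrays of 0.97 to 0.99. Normalization brings the medians together, so they tell little about differences between the arrays before it. The 17 measured hepatocyte markers, of 18 listed, averaged 14.11 to 14.37 in H and 14.10 to 14.31 in L. The labels name no batch, and precision is limited throughout by the number of arrays.

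The probe sets themselves decide which genes can be described. No probe set carried *COL1A1*, which encodes the main chain of collagen I, as its only symbol. *COL3A1*, the chain of collagen III, had a single probe set with a mean of 2.28, and it lay within 0.5 of the lowest value of the arrays, 2.19, on 9 of 10 arrays. *LUM*, the keratan sulfate proteoglycan lumican, had a single probe set with a mean of 2.83. It read 3.73, 2.19, 3.69, 2.65 and 2.25 in H1 to H5, against 2.19, 2.27, 2.19, 2.23 and 4.86 in L1 to L5, so that 7 of 10 arrays were within 0.5 of the lowest value. H1, H3 and L5 stood above it. For both genes only an upper bound can be given in most animals. With no filter, the log2 difference of H minus L was -0.01 (SE 0.12) for *COL3A1* and 0.16 (SE 0.61) for *LUM*, each within its error. Dim probe sets also existed for measured genes, namely 1 of 2 for *COL1A2*, 1 of 2 for *DCN*, 1 of 2 for *SPARC*, 2 of 5 for *THBS1* and 2 of 4 for *FN1*.

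**Figure D1:**
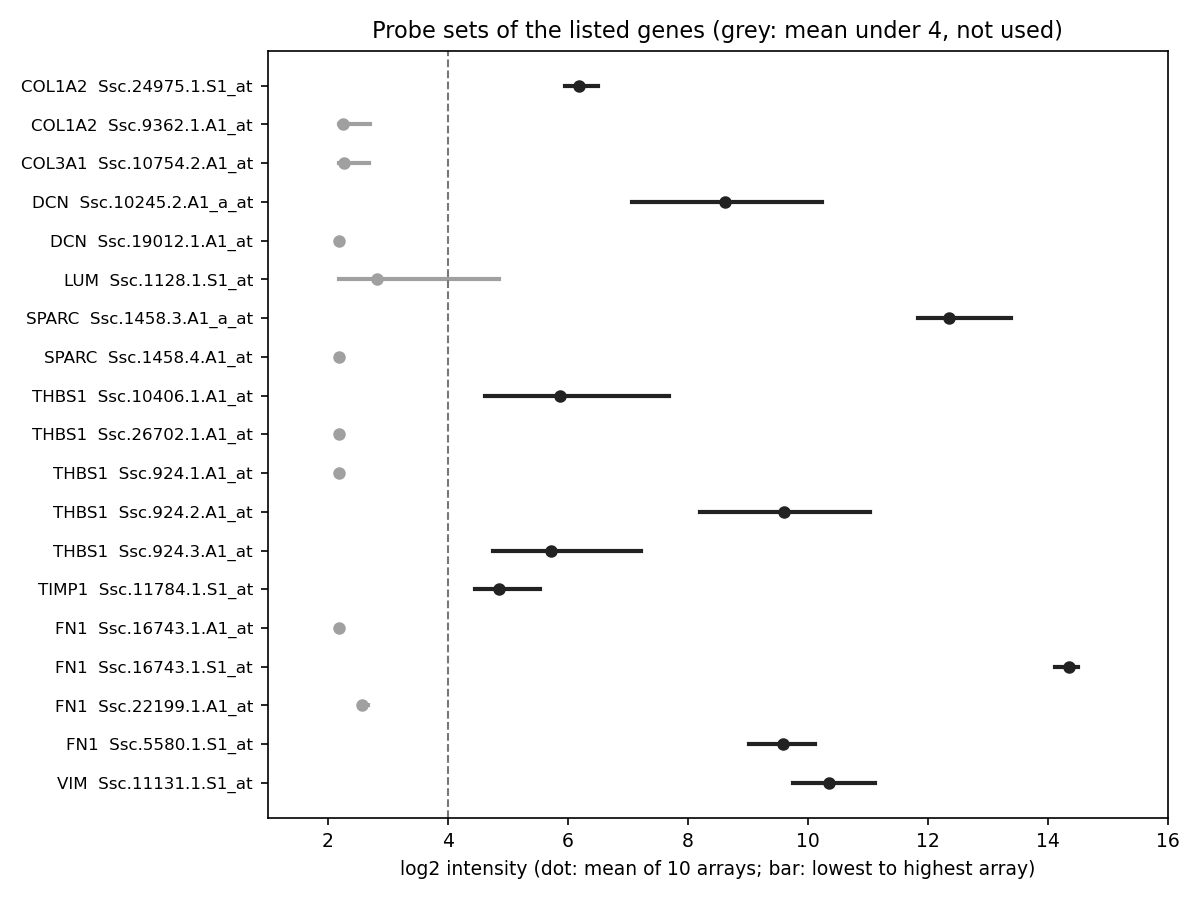
Log2 intensity (horizontal axis) of the 19 probe sets of the listed genes, with the mean of 10 arrays as a dot and the lowest to highest array as a bar. The dashed line marks the minimum mean of 4, which the 10 dark probe sets pass. Of the grey ones only the *LUM* probe set reached above 4 on an array, at 4.86.

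Among the structural matrix genes, *DCN*, the proteoglycan decorin that binds collagen fibrils and TGF-beta, varied most between animals. Its log2 intensity was 8.39, 7.84, 8.92, 9.76 and 7.78 in H1 to H5, against 7.07, 8.43, 8.29, 9.58 and 10.24 in L1 to L5. The lowest and the highest animal, L1 and L5, were both L animals and stood 9.04-fold apart. The SD of *DCN* over the 10 animals, 0.99, was larger than that of 98.8% of the measured genes, whose median SD was 0.22. The groups overlapped over nearly the whole range, with means of 8.54 ± 0.82 in H animals and 8.72 ± 1.23 in L animals (SD, n = 5 each). Liver tissue was measured whole, so fewer cells of a type and less RNA in each cell cannot be told apart.

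*COL1A2*, the second chain of collagen I, was nearly flat. Its probe set read 6.17, 6.10, 6.51, 6.20 and 6.17 in H1 to H5, against 6.17, 6.20, 5.95, 6.22 and 6.17 in L1 to L5. The identical value in H1, H5, L1 and L5 was shared to 4 decimals, which occurred on 4 or more arrays in 6.31% of the 11756 probe sets that passed the minimum mean. Whether the probe set had signal in these animals cannot be told, so its flatness need not be that of the gene. H3 was highest and L3 lowest, and the SD over animals, 0.14, was larger than that of only 17.9% of genes. The H animals averaged 6.23 ± 0.16 and the L animals 6.14 ± 0.11 (SD, n = 5 each).

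*FN1*, fibronectin, was measured by 2 probe sets that gave different pictures. As their mean it was 11.86, 12.14, 11.69, 11.82 and 12.31 in H1 to H5, against 12.06, 12.02, 12.13, 11.85 and 11.81 in L1 to L5. H5 was highest and H3 lowest, and both groups covered the middle of this range. The first probe set, with a mean of 14.35, had values of 14.12, 14.41, 14.35, 14.36 and 14.51 in H, against 14.38, 14.28, 14.45, 14.28 and 14.33 in L. The second, with a mean of 9.59, had 9.59, 9.86, 9.03, 9.27 and 10.12 in H, against 9.73, 9.76, 9.82, 9.42 and 9.29 in L. The second varied more, with an SD of 0.33 over the 10 animals beside 0.11 for the first.

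Among the matricellular proteins, which bind matrix and growth factors without being part of the fibrils, *SPARC* (osteonectin) had a log2 intensity of 11.92, 12.00, 12.53, 13.38 and 11.90 in H1 to H5, against 12.12, 11.84, 12.24, 12.80 and 12.79 in L1 to L5. H4 was the highest animal, and L2, H5 and H1 were the lowest. The range was 2.91-fold, and the H animals averaged 12.35 ± 0.64 and the L animals 12.36 ± 0.42 (SD, n = 5 each). *THBS1*, thrombospondin-1, an activator of latent TGF-beta, had 6.93, 5.99, 8.03, 8.23 and 6.34 in H1 to H5, against 6.64, 6.24, 6.53, 7.54 and 8.21 in L1 to L5. H4, L5, H3 and L4 were well above the other animals, the range was 4.73-fold, and the SD of 0.86 was larger than that of 97.9% of genes. The H animals averaged 7.10 ± 0.999 and the L animals 7.03 ± 0.82 (SD, n = 5 each).

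*TIMP1*, the inhibitor of matrix metalloproteinases, read 5.05, 4.56, 4.68, 5.54 and 4.54 in H1 to H5, against 4.63, 4.56, 4.45, 5.41 and 5.17 in L1 to L5. H4, L4 and L5 were the 3 highest animals. Its mean of 4.86 over the arrays is close to the minimum of 4, and its SD of 0.40 was larger than that of 84.7% of genes. *VIM*, the intermediate filament of mesenchymal cells, had 9.96, 10.16, 10.79, 10.83 and 9.91 in H1 to H5, against 9.88, 9.75, 10.45, 10.67 and 11.13 in L1 to L5. L5 was highest, followed by H4, H3 and L4, and L2 was lowest.

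**Figure D2:**
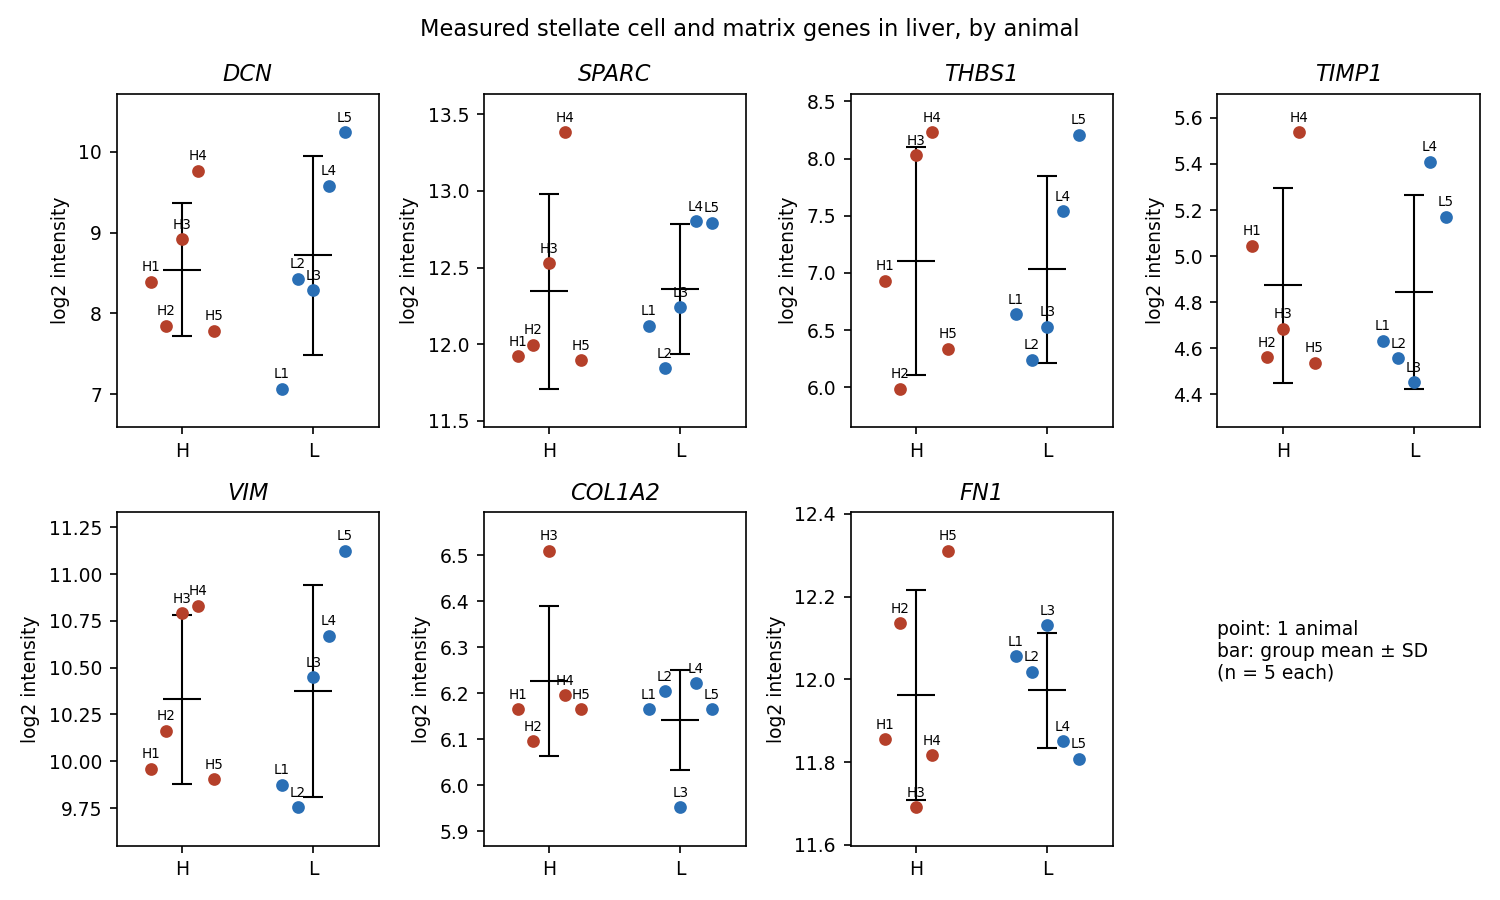
Log2 intensity of the 7 measured genes in each animal, with H left and L right, each point 1 animal and each bar the group mean ± SD (n = 5 each). The vertical scale differs between panels. In every panel H and L overlap, and *DCN* spreads from 7.07 in L1 to 10.24 in L5.

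Where a gene had several measured probe sets, their correlation over the animals was tested against no correlation, with p-values adjusted over all 1693 such pairs on the array. The 3 probe sets of *THBS1* gave Pearson's r of 0.80, 0.79 and 0.90 with each other, with adjusted permutation p-values of 0.0322, 0.0368 and 0.00641, and Spearman's rho of 0.82, 0.68 and 0.85, with adjusted permutation p-values of 0.0427, 0.127 and 0.0264. Over the array 22.7% of pairs were called by r and 15.8% by rho, and the median r was 0.47. The individual readings show this agreement. The first, with a mean of 5.88, had 5.60, 5.00, 7.15, 7.69 and 4.81 in H, against 5.60, 4.63, 5.25, 6.69 and 6.36 in L, and the second, with a mean of 9.60, had 9.90, 8.21, 10.33, 10.64 and 8.95 in H, against 9.12, 8.82, 9.30, 9.66 and 11.04 in L. H3 and H4 were high in both, while L5 was highest in the second. The third, with a mean of 5.73, ran from 4.76 in H2 to 7.23 in L5. With 1 animal left out, the r of the 3 *THBS1* pairs ran from 0.76 to 0.88, from 0.75 to 0.91 and from 0.84 to 0.94. With 9 animals 1 of the 3 pairs was called without H2, H3, H4, H5, L1, L2 or L3, 2 without H1 or L4, and 3 without L5. The 2 *FN1* probe sets had an r of 0.40 (permutation p = 0.256, adjusted p = 0.418) and a rho of 0.56 (permutation p = 0.0956, adjusted p = 0.235), and were not called.

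The 7 measured genes form 21 pairs, and their correlations over the 10 animals were tested together with all 33061 pairs of one of them with a measured gene. None of the 21 was called after adjustment, nor was any of the 33061 (0%), by r or by rho (0%), with adjusted permutation p-values of the 21 between 0.649 and 0.977 for r. At an unadjusted permutation p under 0.05, 14 of the 21 passed by r, against 5.93% of all pairs, and 15 by rho, against 5.78%. The median r of the 21 was 0.51, against 0.03 over all pairs of measured genes. These genes were chosen with earlier results of these arrays known, and the shares are a description.

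The positive part of the pattern lay in *DCN*, *SPARC*, *THBS1*, *TIMP1* and *VIM*, a subset taken after the values were seen. Their 10 pairs had r between 0.60 and 0.87, and 9 had an unadjusted permutation p under 0.05. The highest was *SPARC* with *THBS1*, at r = 0.87 (permutation p = 0.00146, adjusted p = 0.649) and rho = 0.82 (permutation p = 0.00593, adjusted p = 0.809). *SPARC* and *VIM* had r = 0.86 (permutation p = 0.00135, adjusted p = 0.649) and rho = 0.87 (permutation p = 0.00209, adjusted p = 0.809). *DCN* and *VIM* had r = 0.85 (permutation p = 0.00227, adjusted p = 0.649) and rho = 0.77 (permutation p = 0.0128, adjusted p = 0.827). The lowest was *TIMP1* with *VIM*, at r = 0.60 (permutation p = 0.0698, adjusted p = 0.845) and rho = 0.62 (permutation p = 0.0598, adjusted p = 0.844).

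Animals H3, H4, L4 and L5 were the 4 highest in *DCN*, *SPARC*, *THBS1* and *VIM*, so these pairs share the same few animals. With the 2 most distant animals from the first gene's median left out, r was 0.69 for *DCN* with *SPARC*, 0.70 for *DCN* with *VIM*, 0.88 for *SPARC* with *THBS1* and 0.96 for *SPARC* with *VIM*. H3 and either L4 or L5 stayed in, so these values cannot tell whether the genes correlate without the shared animals. Without H4 and either L4 or L5, *TIMP1* had an r of 0.49 with *SPARC*, 0.57 with *THBS1* and 0.47 with *VIM*, the lowest of the 10 pairs. Over all 10 pairs the reduced sets gave r from 0.47 to 0.96. With each group centred on its own mean, the 10 pairs had r from 0.60 to 0.87, so the correlation was as high within the groups as over all animals.

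**Figure D3:**
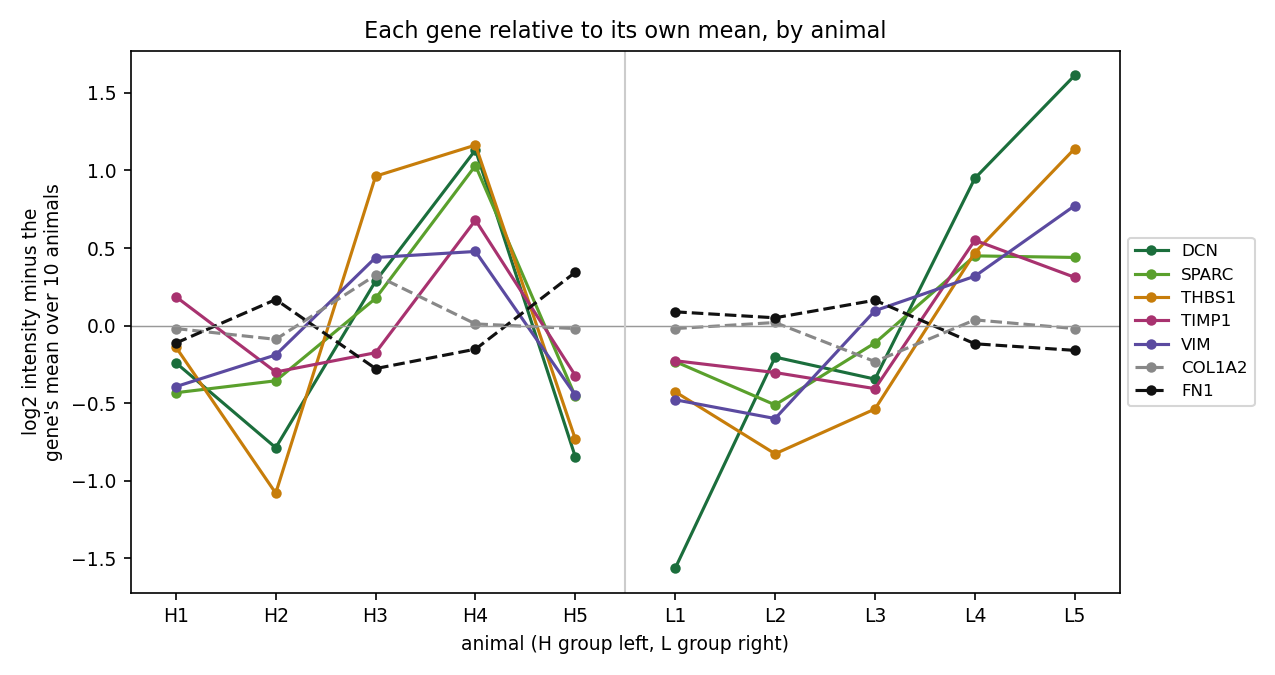
Log2 intensity of each measured gene minus its own mean over the 10 animals (vertical axis), by animal, H left and L right. Lines only join the points of a gene within a group. The solid lines (*DCN*, *SPARC*, *THBS1*, *TIMP1*, *VIM*) peak together in H4 within the H group and are all above 0 in L4 and L5, while *FN1* (black dashes) is below 0 in those animals.

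*FN1* correlated negatively with each of the other 6 genes. The r was -0.85 with *THBS1* (permutation p = 0.00293, adjusted p = 0.649), with a rho of -0.85 (permutation p = 0.00332, adjusted p = 0.809), and -0.71 with *DCN* (permutation p = 0.0236, adjusted p = 0.808), with a rho of -0.84 (permutation p = 0.00345, adjusted p = 0.809). With the other 4 genes r lay between -0.66 and -0.63. This sign came from the second *FN1* probe set, whose r with the other 6 genes ran from -0.91 to -0.61. For the first, of higher intensity, the same r ran from -0.46 to 0.03. With the brightest probe set of each gene, which takes the first one of *FN1* and the second one of *THBS1*, none of the 6 *FN1* pairs had an unadjusted permutation p under 0.05, 9 of the 21 pairs did in all, and the r of *FN1* with *VIM* was 0.03 in place of -0.66.

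The *COL1A2* probe set, with 1 shared value in H1, H5, L1 and L5, showed little of the pattern. Its r with the 5 positively related genes lay between 0.18 with *TIMP1* and 0.51 with *THBS1* (permutation p = 0.125, adjusted p = 0.871), and none had an unadjusted permutation p under 0.05. Its r with *FN1* was -0.63 (permutation p = 0.0437, adjusted p = 0.838), and -0.45 without H3 and L3.

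**Figure D4:**
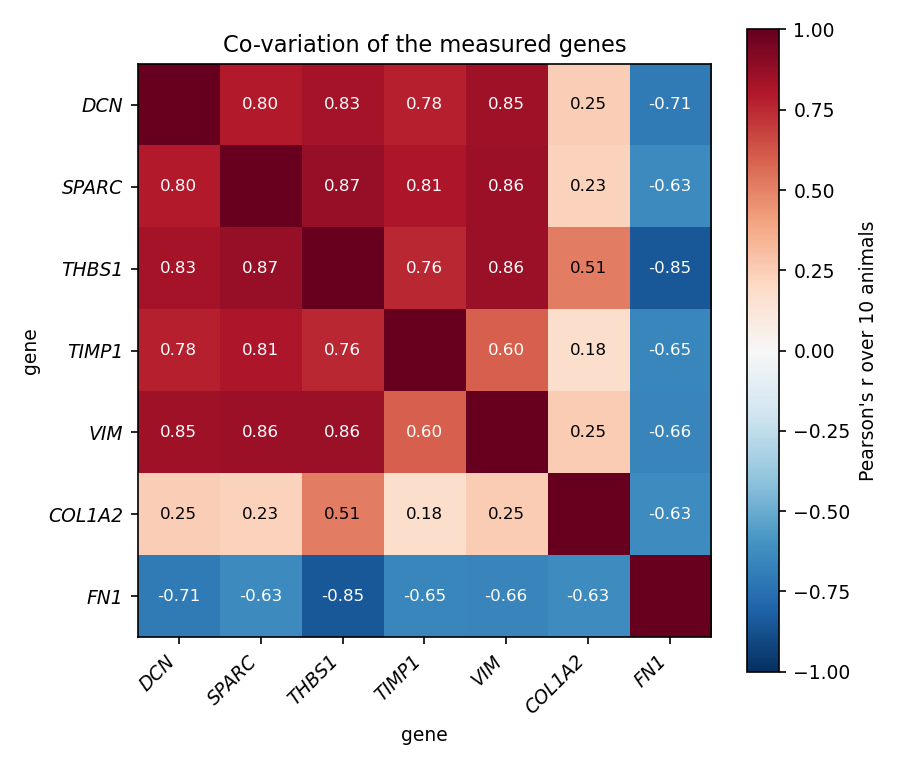
Pearson's r over 10 animals between the 7 measured genes, with red for positive and blue for negative values. The 5 genes at the upper left have r between 0.60 and 0.87 with each other, and *FN1*, in the last row, has r from -0.85 to -0.63.

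Between the groups no gene of the set differed by more than the spread between animals. The log2 difference of H minus L was -0.18 for *DCN* (SE 0.59, 95% interval -1.48 to 1.12) and 0.07 for *THBS1* (SE 0.51, interval -1.07 to 1.21). It was -0.01 for *SPARC* (SE 0.31, interval -0.70 to 0.67), -0.04 for *VIM* (SE 0.29, interval -0.69 to 0.60) and 0.03 for *TIMP1* (SE 0.24, interval -0.51 to 0.57). The narrowest intervals belonged to *FN1*, at -0.01 (SE 0.13, interval -0.29 to 0.27), and to *COL1A2*, at 0.08 (SE 0.10, interval -0.13 to 0.30). That of *COL1A2* rests on a probe set with a shared value in H1, H5, L1 and L5, so its width need not be that of the gene. That of *FN1* rests on the mean of probe sets that gave different pictures. In limma's test with Benjamini-Hochberg adjustment over the 4730 genes, the adjusted p-values of the 7 lay between 0.985 and 0.999, and the exact permutation test over all divisions of the animals into 5 and 5, two-sided, gave p from 0.524 for *COL1A2* to 0.984 for *SPARC*. For *DCN* and *THBS1* the intervals include differences of 1 log2 unit in either direction, which these arrays therefore do not exclude. The study's RNA-Seq of the same animals listed *THBS1* as lower in H, by another test and threshold. The arrays neither show nor exclude that direction.

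Over the whole array 0 of 4730 genes (0%) passed the adjusted threshold. At an unadjusted limma p under 0.05 there were 125 genes (2.64%), a count that was 213 without H2 and 281 without L2, and 17 genes (0.359%) had groups that did not overlap, a count that lay between 27 and 81 with 1 animal left out, the highest being 81 without H2 and 79 without L2. None of the 7 was among either. The median difference of the 7 was -0.01, with 3 above 0, against a median of -0.04 over all genes, of which 37.2% were above 0. The 3 *THBS1* probe sets differed in the sign of H minus L, at 0.34 (SE 0.61), 0.02 (SE 0.53) and -0.15 (SE 0.49), each within its error. The 2 *FN1* probe sets had differences of 0.01 (SE 0.08) and -0.03 (SE 0.20). None of 11756 probe sets was called after adjustment, and 363 had an unadjusted limma p under 0.05, against 617 without H2, 685 without L2 and 237 without L4.

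**Figure D5:**
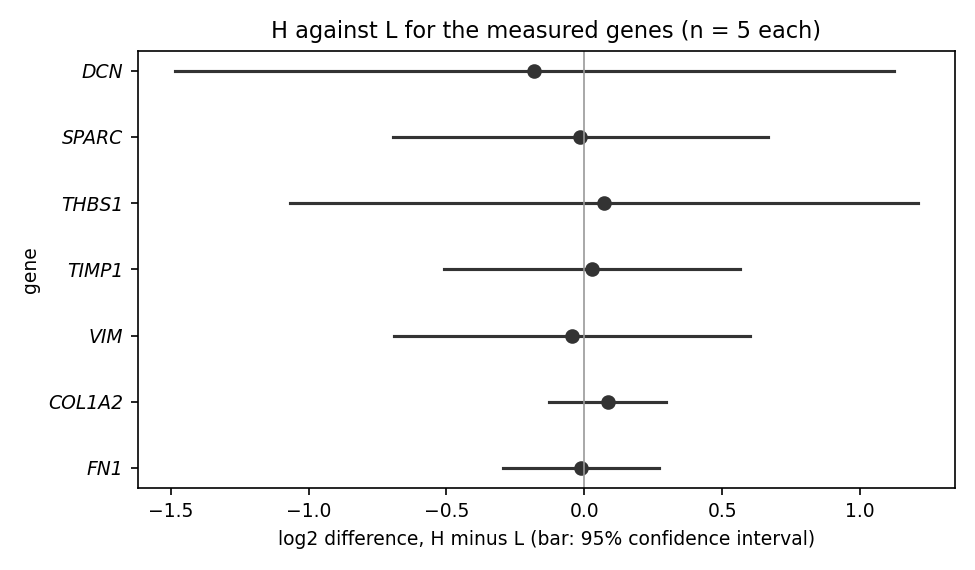
Log2 difference of H minus L for the 7 measured genes, with the point as the difference of means and the bar as limma's 95% confidence interval (n = 5 each). Every interval includes 0, and that of *DCN*, from -1.48 to 1.12, is the widest of the 7.

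Some genes of the wider matrix pathway followed the set between animals and others did not. To describe this, each gene was correlated with the mean of the 7 measured genes, each centred over the animals. The genes were not scaled, so *DCN* and *THBS1*, with SDs of 0.99 and 0.86, weighed most. *COL1A2* and *FN1*, with SDs of 0.14 and 0.19, weighed least. The r with the mean was 0.35 for *COL1A2*, -0.77 for *FN1* and 0.83 to 0.95 for the other 5. This mean was chosen after the values were seen and holds the members, so no test is given. Of 4727 genes that varied, 56 (1.18%) had an r of at least 0.75, of which 5 were members, and the median r was 0.05. Outside the set the highest were *LGALS1*, galectin-1, at 0.94, *CCDC80*, a secreted matrix-binding protein, at 0.92, and *CYR61*, the matricellular protein CCN1, at 0.91. *CYR61* read 8.23, 8.29, 9.72, 9.54 and 8.18 in H1 to H5, against 8.49, 7.76, 8.41, 9.47 and 9.62 in L1 to L5. The others of the first 10 were *WDR1* (0.90), *FBN1* (0.90), the microfibril protein fibrillin-1, *FAP* (0.89), a protease of activated fibroblasts, *FAT1* (0.88), *SLC25A4* (0.88), *ADAMTS1* (0.87), a matrix protease, and *EGR1* (0.87). Of 5 measured matricellular genes *CYR61* alone was at 0.75 or more, and the rest ran from 0.14 for *SPP1* to 0.68 for *SPARCL1*. Of 8 measured proteoglycans and matrix glycoproteins *FBN1* alone was, and the median of the 8 was 0.55.

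Of the matrix collagens beyond the set, *COL6A3* of collagen VI had an r of 0.87 with that mean and *COL4A2* of the basement membrane 0.85, while *COL5A1* had 0.57. The 4 measured basement membrane genes were mixed, with *LAMB1* at -0.66. *COL6A3* read 6.71, 5.87, 7.35, 8.57 and 6.78 in H1 to H5, against 6.84, 6.97, 7.23, 7.36 and 8.18 in L1 to L5, with H4 and L5 highest. Of 4 measured matrix proteases and inhibitors beyond *TIMP1*, *MMP7* (0.86) and *ADAMTS1* (0.87) were at 0.75 or more, and all 4 were above 0. Of 7 measured genes of collagen synthesis and cross-linking only *LOX*, lysyl oxidase, was, at 0.82, and the median of the 7 was 0.09. The 9 measured matrix receptors had r between -0.41 and 0.39, and the 5 genes of TGF-beta and PDGF signalling had a median of -0.16. Of these 5, *TGFB1* held a single value, 5.40, in H1, H2, H3 and all L animals.

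None of the 53 measured genes in the 10 pathway lists passed the adjusted limma threshold between H and L (0% of all genes). At an unadjusted limma p under 0.05 there was 1 of the 53, against 2.64% of all genes, so the lists held no more than the array as a whole. It was *SDC4*, the heparan sulfate proteoglycan syndecan-4. It read 7.15, 6.81, 7.32, 6.68 and 7.13 in H1 to H5, against 7.23, 7.51, 7.41, 7.14 and 7.53 in L1 to L5, and the groups overlapped. The difference was -0.34 (SE 0.14), with an unadjusted p of 0.0291 and an adjusted p of 0.985 in limma's test over all genes.

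The defining markers of stellate cells gave a mixed check of the set's name. Of 22 listed markers of stellate cells and fibroblasts 13 had a probe set and 8 were measured, with *GFAP* and *CYGB* within 0.5 of the lowest value on all arrays. *FAP* had an r of 0.89 with the mean of the set and *PDGFRB*, the PDGF receptor of stellate cells, 0.59. *ACTA2*, the smooth muscle actin of activated stellate cells, had -0.29, *THY1* -0.68, *TPM2* -0.31, *RGS5* -0.11, *DES* 0.03 and *TAGLN* 0.11, and the median of the 8 was -0.04. *DES* held a single value, 4.53, in H2, H4, H5, L1, L2, L4 and L5, so its r rests on the other animals. *ACTA2* read 9.83, 10.43, 9.77, 9.43 and 10.79 in H1 to H5, against 9.82, 10.45, 9.29, 10.48 and 10.09 in L1 to L5. H4, the animal with the highest *SPARC*, *THBS1* and *TIMP1*, had the lowest *ACTA2* of the H group. The mean of the stellate and fibroblast markers had an r of -0.12 with the mean of the set. It ran from 6.78 to 7.30 in H and from 6.69 to 7.26 in L.

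Markers of other cells moved with the set to different degrees. The mean of 4 measured cholangiocyte markers, of 10 listed, had an r of 0.82 with the mean of the set, at levels of 6.98 to 7.35 in H and 6.57 to 7.51 in L. Its defining markers *KRT19*, *SOX9* and *CFTR* were within 0.5 of the lowest value on all arrays. The r was 0.15 for 10 Kupffer cell and macrophage markers, 0.11 for 6 endothelial markers and -0.32 for the 17 hepatocyte markers. The mean of 9 immediate early genes, which respond fast to growth factors and stress, had an r of 0.69, at levels of 7.59 to 9.09 in H and 8.02 to 9.43 in L, with a median of 0.60 over the single genes and values from -0.51 for *BTG2* to 0.87 for *EGR1*. The *GAPDH* 3' minus 5' difference, which grows as RNA degrades, ran from 1.70 to 2.39 in H and from 1.68 to 2.70 in L, and had r between -0.49 for *DCN* and 0.16 for *FN1*. Its highest value, 2.70, was that of L1, the animal with the lowest *DCN*. The median of the array had an r of 0.62 with *VIM* and 0.46 with *DCN*. The part of these markers, of the early genes and of RNA quality in the co-variation was not tested.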

How the data were processed

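Liver RNA of 5 H and 5 L females was hybridised to Affymetrix GeneChip Porcine arrays. The authors scanned them with GCOS and deposited log2 intensities after GCRMA background adjustment and normalization, and the processing notes also name RMA, without versions. Probe sets at or near the lowest value of the arrays, 2.19, have only an upper bound. Other probe sets held a constant of their own on most arrays, such as 2.57 for 1 of *FN1* and 4.53 for *DES*. A value above 2.19 therefore does not by itself show signal. All 10 columns were used. Of 23999 porcine probe sets 10069 had 1 gene symbol, 198 several and 13732 none, and 9961 of the 10069 were matched to a current symbol by Entrez ID. The groups were compared by lmFit and eBayes of limma 3.58.1 (R 4.3.3; Benjamini-Hochberg, threshold 0.05), with an exact permutation test over all divisions of the animals beside it, whose smallest p is 0.00794. Correlations used 100000 resamples, adjusted over all pairs, in Python 3.11.15 (scipy 1.17.1, pandas 2.3.3 and numpy 2.4.6). Both were tested on simulated data. Figures were drawn with matplotlib 3.10.9.

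The members and lists were chosen with earlier results of these data known. The text names all 10 members, the 10 genes most like a collagen score, every measured stellate marker, and up to 4 genes of each pathway list with an unadjusted p under 0.05. As only *COL1A2* of the collagens was measured, the likeness to the mean of the 7 measured genes was added after seeing the data. Other genes of lists were named as examples after their values were seen. Alternatives were the minimum mean (none, 3 or 6), centred or quantile-normalized arrays, array weights, *GAPDH* as a covariate, a block by animal number, a trended prior, the brightest or median probe set, and each animal left out in turn.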

Additional observations from a re-analysis of the deposited data

Results flagged for a closer look

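In *COL1A2*, 1 animal of each group lay apart from the others. H3 was highest in the H group, with a gap to the nearest animal of 0.76 of the group's range, and L3 was lowest in the L group, with a gap of 0.792 of the range. Both exceed Dixon's limit of 0.71 for groups of 5. These were 2 of 14 combinations of gene and group tested, and chance gives about 1 in 20 where values are not tied. H1, H5, L1 and L5 held a single value, 6.17, so that rate is not a fair guide for *COL1A2*. No other measured gene of the set had such an animal in H or L.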

How the results depend on the processing

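No setting gave a called difference between H and L for a gene of the set (0 of 146 values), and 36 of the 146 had the opposite sign. Without single animals the difference of *DCN* ran from -0.59 to 0.20 and that of *THBS1* from -0.21 to 0.37. The count of member pairs at an unadjusted p under 0.05 was 9 with the brightest probe set of each gene, in place of 14, and 11 to 14 without single animals. The r of *FN1* and *VIM* was 0.0274 with the brightest probe set, in place of -0.66. The number of probe set pairs called was 0 with a mean of at least 6, where only the 1 *FN1* pair was left, 1 of 11 with no filter, and 1 to 3 without single animals, in place of 3. No pair of the 21 and no gene or probe set between H and L was called under any setting, and 3 of 351 values of r turned sign. Animal numbers showed no pairing in the values. Same-numbered animals had correlations of 0.08, -0.24, -0.10, 0.28 and 0.02, and only 1 of 5 correlated best with its own number. Paired animals need not correlate in expression, so this check cannot exclude a pairing. With the number as a replicate block 0 genes were called, and 140 in place of 125 had an unadjusted limma p under 0.05. Precision is limited by 5 arrays a group, and signals near the lowest value of the arrays give only an upper bound.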

Other observations

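The collagen score fixed for the search of like genes held only *COL1A2*, as *COL1A1* and *COL3A1* were not measured. The genes with the highest r with it over the 10 animals were *GPC3* (0.90), *CSRP1* (0.88), *DECR1* (0.87), *KAT5* (0.84), *F9* (0.83), *EEF1A1* (0.83), *KDM3A* (0.83), *CDC25B* (0.83), *MT-2B* (0.82) and *CTNNAL1* (0.81). Several of them also held a common value in most animals. *KDM3A* read 4.60, 4.60, 4.62, 4.60 and 4.60 in H1 to H5, against 4.60 in each of L1 to L5, and *KAT5* read 4.42 in H3 and between 4.14 and 4.16 in the other H animals, against 4.15 to 4.16 in L. H3 was the highest animal in both, as in *COL1A2*.

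The genes with the lowest r with the mean of the 7 measured genes were *PPP3CB* (-0.87), *RPL17* (-0.86), *MGEA5* (-0.85), *RBM48* (-0.85) and *PCBD2* (-0.85). Of 4 measured basement membrane genes, *LAMB1* had an r of -0.66, while *COL4A2* had 0.85 and *NID2* 0.71. Of 9 measured immediate early genes 8 had a negative difference of H minus L, where 37.2% of all genes had a positive one. The difference was -1.12 (SE 0.83) for *FOS*, and none had an unadjusted limma p under 0.05. *FOS* was also listed as lower in H by the study's RNA-Seq of the same animals, by another test and threshold.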
